A study of Canis lupus familiaris with 109 samples.

Results

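Blood DNA methylation was described here at sparse, unmethylated cytosine positions of the dog genome. They were chosen by 2 values: each has 1 to 3 listed positions within 100 bp on either side, itself included, and a median methylation fraction under 0.1 over 95 libraries. This gave 10413 of 304191 positions on the 38 autosomes, or 10413 of the 73373 sparse positions. A fraction is the share of reads at a cytosine that were read as methylated, from 0 to 1.

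Whole blood of domestic dogs was bisulfite-treated and captured by the Roche SeqCap Epi protocol, per the labels, in a study of how blood methylation changes with age. The labels list 109 samples. By age, 13 are juvenile (0.134 to 0.455 years), 6 adolescent (0.559 to 1.9 years), 35 mature (2.24 to 6.9 years) and 40 senior (7.33 to 14.5 years), while 6 others are second captures (0.384 to 15.5 years), 1 served as the first capture for such a pair alone (15.5 years), and 8 had low coverage (0.455 to 9.33 years). Whole blood mixes white cell types, whose shares were not measured. The library codes of the tables match no label, so no library was given an age, sex or group, and no test of any of these was made. All values below are ranges, medians and counts over unassigned libraries or over positions, which are not replicates. Read depth is unknown.

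In vertebrates most CpGs are methylated, and the main exceptions are CpG islands, stretches rich in CpG that often lie at gene starts and are kept unmethylated. CpGs far apart from each other are methylated in most tissues, except where proteins bound to DNA, as at active enhancers, keep methylation low. A change in the sequence that removes a CpG also removes its methylation. Genes, islands and enhancers were not assigned here, because no annotation of the tables' genome build was used, and no sequence is shown for the same reason.

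Some libraries stood apart before any result. Values of exactly 1.0 were listed at a median of 61 of the 10413 positions per library, but at over 5% of them in 7 libraries, from 6.1% to 14%, the highest count being 1453 in the library coded L4_A7. Filled-in values, meaning those with more than 2 decimals, made up a median of 0.0672% per library and over 5% in 5 other libraries, up to 21.8% in the library coded L1_A7. Leaving out all 12 gave 10429 positions by the same rule, and leaving out L4_A7 and L1_A7 alone gave 10417.

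The 10413 positions were, by choice, near 0, and most sat at 0 itself. The median fraction was exactly 0 at 7014 of them (67.4%) and under 0.05 at 8474 (81.4%). A median of exactly 0 was more common, at 86.9%, among denser positions with a median under 0.1, those with over 3 listed positions. Values near the boundary of 0.1 were less common, with 297 positions at medians of 0.09 or more, beside 339 sparse positions from 0.1 to under 0.11 just outside. The highest median inside belonged to a position on chromosome 6 at 31798322, whose median was 0.0987 and whose highest library was at 0.31. Just outside, 334 sparse positions had a median of exactly 0.1. In the first of them, on chromosome 1 at 18482941, the highest library was at 0.27, apart from 1 value of 1.0. Over all sparse positions 14.2% met the rule, and by number of listed positions this was 10.7% of those with 1, 13% of those with 2 and 18% of those with 3. By chromosome the share ran from 7.48% of 749 sparse positions on chromosome 38 to 18.9% of 702 on chromosome 32.

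The sparse unmethylated positions lay closer to dense runs than other sparse positions did. Runs were stretches of 10 or more listed positions with gaps up to 100 bp, of which there were 7274, with 5184 at a level under 0.1. The median distance to the nearest run was 19448 bp, against 69414 bp for sparse positions with medians from 0.1 to 0.8 and 78431 bp for sparse positions with medians over 0.8. Of the 10413 positions, 2749 (26.4%) lay within 1000 bp of a run, where the share over all sparse positions was 7.68%. Only 3.05% of the sparse methylated positions were that close. At the other end, 5805 positions (55.7%) lay over 10000 bp away, against 82.2% of the sparse methylated positions. Inside a run, at a thinly listed place of it, were 419 positions (4.02%), against 1.24% of all sparse positions. The count depends on what is taken as a run: 43.6% lay within 1000 bp when 5 listed positions made a run, and 12.4% when 20 did.

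The nearest run was itself unmethylated for 7877 of the positions (75.6%), against 66.9% over all sparse positions. Among the 2749 positions within 1000 bp of a run, 2455 (89.3%) were beside an unmethylated run and 29 (1.05%) beside a methylated run. Among sparse methylated positions at the same distances, 31.8% were beside an unmethylated and 48.2% beside a methylated run. Run levels and position levels come from the same libraries, and a position inside a run is part of that run's level. This therefore describes 1 set of measurements and is not a repeat of it.

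The unmethylated state faded over about the first 2000 bp outside an unmethylated run. Of the sparse positions inside such runs, 368 of 462 (79.7%) met the rule, and at 101 to 200 bp from the edge 451 of 561 did (80.4%). Between 201 and 500 bp the share was 68.7%, and between 501 and 1000 bp it was 47.6%. Between 1001 and 2000 bp it was 23.7%, followed by 13.3% between 2001 and 5000 bp. It then stayed between 9.88% and 14.5% at all larger distances. Over the same steps the methylated share rose from 1.3% inside to 57.8% at 2001 to 5000 bp. Around methylated runs the unmethylated share was 0 of 199 inside and 3 of 117 at 101 to 200 bp, and at 2001 to 5000 bp it was 8.33%. Positions inside a run are part of its level, so the shares inside are partly fixed by how the run was labelled.

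**Figure D1:**
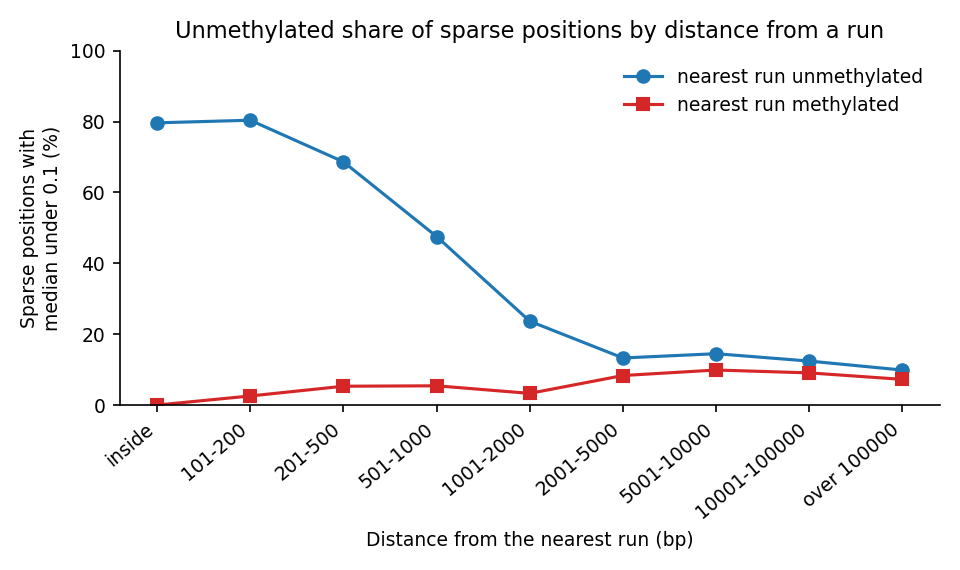
The vertical axis gives the percentage of sparse positions with a median fraction under 0.1, by distance in bp from the nearest run (horizontal axis, unequal steps), for unmethylated runs (circles) and methylated runs (squares). Beside unmethylated runs the share falls from 80.4% at 101 to 200 bp to 13.3% at 2001 to 5000 bp, while beside methylated runs it lies between 0% and 9.89% throughout. Positions inside a run are part of that run's level.

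Many of these positions were sparse only in the main table. A table of repeat captures lists 1812277 positions for 7 libraries, which the rule did not use, and joining positions at consecutive coordinates gave 942865 CpGs, 92.2% of them with both strands. It holds 9128 of the 10413 positions (87.7%). Around these the repeat table listed a median of 6 CpGs within 100 bp, itself included, with quartiles of 3 and 13. Around sparse methylated positions the median was 2, with quartiles of 2 and 3. In the repeat table, 3253 of the 9128 positions (35.6%) had 10 or more CpGs around them, against 7.83% of all sparse positions in both tables, and 3981 (43.6%) lay inside a run of 10 or more CpGs, against 10.7%. Another 3360 positions (36.8%) had 1 to 3 CpGs there as well, against 71.1% of all sparse positions in both tables. Counted as listed positions without joining strands, 857 (9.39%) had 1 to 3, against 24.2%. How the main table's positions were filtered is not given in the sources used here.

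Up to about 20 CpGs listed around it in the repeat table, a sparse position was more often unmethylated the more there were. With 1 CpG, its own, 5.23% of 13372 sparse positions met the rule. With 5 CpGs the share was 17.3% of 2805, with 10 CpGs 46.3% of 637, with 15 CpGs 68.8% of 362 and with 20 CpGs 89.1% of 183. From there the share did not rise steadily, with 85.7% of 105 at 23 CpGs and 86.4% of 59 at 27. Some positions far from any run of the main table were in such crowded places. On chromosome 38 a pair of positions at 6004558 and 6004566 lay 3498151 and 3498159 bp from a main-table run, and each had 32 CpGs within 100 bp in the repeat table. Both had a median of 0 over the 95 libraries, with highest libraries of 0.12 and 0.2, and all repeat libraries were at 0. By runs of the repeat table, 67.9% of the 9128 positions lay within 1000 bp of a run, against 23.9% of all sparse positions in both tables.

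**Figure D2:**
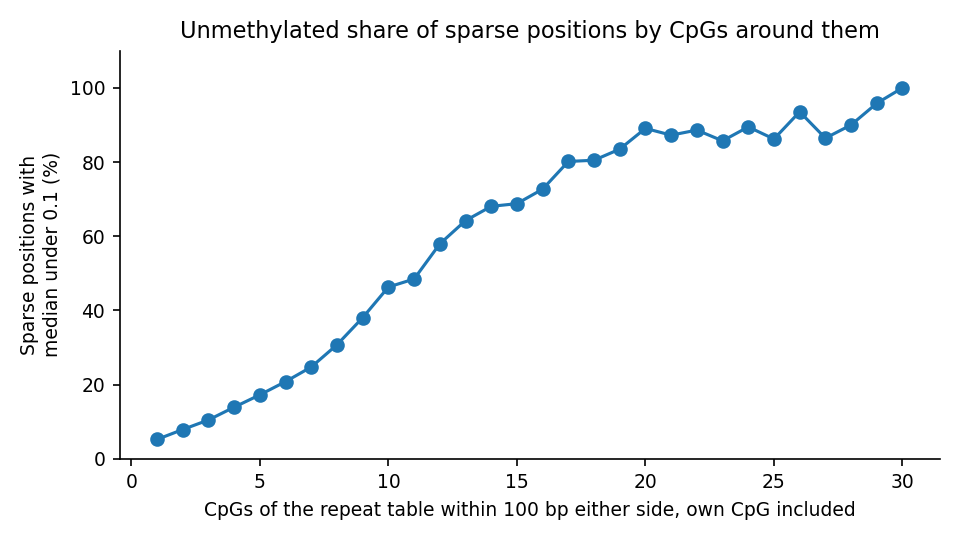
Each point gives the percentage of sparse positions of the main table with a median fraction under 0.1 (vertical axis), by the number of CpGs that the repeat table lists within 100 bp on either side (horizontal axis, own CpG included). The share is 5.23% at 1 CpG and 89.1% at 20 CpGs, moves between 85.7% and 95.8% from 21 to 29 CpGs, and the last point, at 30 CpGs, rests on 21 positions.

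The positions with 1 to 3 CpGs in the repeat table differed in level and place from those in crowded surroundings. Their median over the 95 libraries was exactly 0 at 49.5%, against 69.6% of the 2515 positions with 4 to 9 CpGs and 87.9% of the 3253 positions with 10 or more. The median distance to a main-table run was 38111 bp, 12508 bp and 12020 bp in the 3 classes. The positions with 1 to 3 CpGs were 7.84% of all sparse positions so placed, of which 62.4% were methylated. Those with 10 or more CpGs were 68.9% of all sparse positions so placed, of which 20.9% were methylated.

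The CpGs next to these positions were mostly unmethylated too, also where they were few. The level of a CpG in the repeat table is the median over its 7 libraries, averaged over its strands. Around positions with 1 to 3 CpGs, other CpGs within 50 bp had a mean level of 0.099, and those at 51 to 100 bp 0.133. These means rest on the 1925 and 1370 of the 3360 positions that had another CpG at that distance. Around positions with 10 or more CpGs the same means were 0.0111 and 0.0134. Around sparse methylated positions they were 0.904 and 0.876. Farther out the levels rose, to 0.253 at 1001 to 2000 bp and 0.446 at 2001 to 5000 bp over all 3 classes together. The rise was steepest around crowded positions, from 0.0342 at 201 to 500 bp to 0.538 at 2001 to 5000 bp. Around positions with 1 to 3 CpGs it went from 0.107 to 0.366 over the same distances. These are means over 1276 and 1814 positions, so the set of positions changes with distance.

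**Figure D3:**
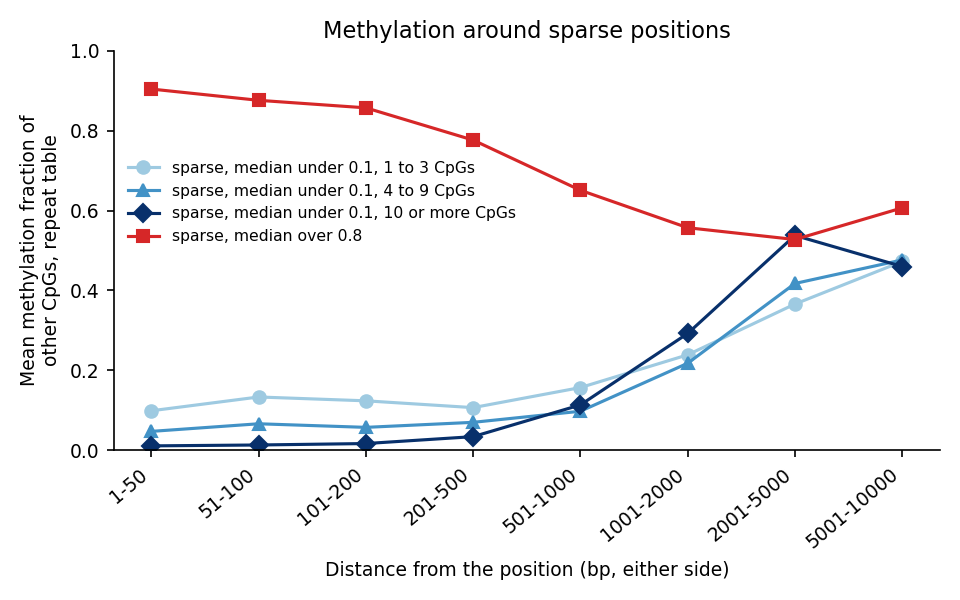
Mean methylation fraction of other CpGs in the repeat table (vertical axis), averaged first around each position, by their distance in bp on either side (horizontal axis, unequal steps), around sparse unmethylated positions with 1 to 3, 4 to 9 or 10 or more CpGs within 100 bp and around sparse methylated positions (squares). Within 500 bp all 3 unmethylated classes lie at or under 0.133, and the sparse methylated positions lie at 0.776 or above. Each step holds only the positions with another CpG at that distance, so the set of positions changes between steps.

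Of the 9128 positions, 7223 had at least 3 other CpGs within 500 bp in the repeat table. The median level of these CpGs was under 0.1 for 6642 positions (92%), from 0.1 to 0.8 for 513 (7.1%) and over 0.8 for 68 (0.941%). Over all 26866 sparse positions with as many CpGs around them, these shares were 33.4%, 17% and 49.6%. The 68 positions amid methylated CpGs kept low levels in the repeat table at 53 places (77.9% under 0.1). The other strand of their CpG was listed for 62 of them, with 52 under 0.1, 10 from 0.1 to 0.8 and 0 over 0.8.

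In the repeat table the positions were again unmethylated. The codes of its 7 libraries are not among the 95. Of these codes 6 start with CHYB6, and each of the 6 shares a number with a code that holds the word Pilot, in the main table or, for number 1, in the repeat table itself. No label ties the codes to dogs, so whether a shared number means the same dog was not established, and the 7 libraries are not taken as other dogs. The median over the 7 libraries was under 0.1 at 8466 of the 9128 positions (92.7%), where the share over all shared positions was 51.9%. It was from 0.1 to under 0.2 at most of the rest, since 58 positions reached 0.2 (0.635%) and 5 were over 0.8. Denser positions with a median under 0.1 in the main table repeated more often, with 98.2% under 0.1 and 0.086% at 0.2 or more. Single libraries had between 85.6% and 88.9% of the sparse unmethylated positions under 0.1. By the median over the 7 libraries, the share was 98.2% of those with 10 or more CpGs, 93.5% with 4 to 9 and 86.9% with 1 to 3.

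Both strands of the CpGs were low. In the repeat table the opposite strand was listed for 8787 of the positions, and its median was under 0.1 at 8257 (94%), against 52.9% over all shared positions. It was over 0.8 at 2. At denser positions with a median under 0.1 in the main table, 98.4% of the opposite strands were under 0.1. In the main table itself 367 positions (3.52%) had the opposite strand listed, which was under 0.1 at 353 and reached at most 0.14 at the others. These values come from the libraries that chose the positions, and the same was not counted over all positions.

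The spread between libraries depended on values listed as 1.0. As deposited, 6541 of the 10413 positions (62.8%) had a range over 0.5 between the lowest and the highest library, against 68.6% of all positions with a median under 0.1. No cell of these positions with 2 decimals held 0.01, whereas 33767 held 0.02. After 1.0 was replaced by 0.01 where the median was under 0.05, 1115 positions (10.7%) had such a range, 917 of them at medians of 0.05 or more, which that setting leaves as deposited. At these higher medians 1777 cells held 1.0 and only 8 lay at 0.9 or above without being 1.0. With 1.0 set to 0.01 at all 10413 positions, a setting added after seeing the data, 319 positions (3.06%) had a range over 0.5. The share over all positions with a median under 0.1 was then 0.551%, and over the denser ones 0.368%. The setting would also hide a true value of 1.0.

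The positions with the widest ranges illustrate this, and were chosen by those ranges. A full range needs values of 1.0, which the setting for medians under 0.05 leaves only at medians of 0.05 or more. Under it, 36 positions tied at a full range between the 5th and 95th percentile, so all 36 had such medians. The first of these, on chromosome 2 at 21076745, had 73 libraries under 0.1, 16 from 0.1 up to 0.2, and 6 at 1.0. A second, on chromosome 2 at 30137152, had 75 libraries under 0.1, 10 from 0.1 up to 0.23, and 10 at 1.0. The next, at 47713296, had 51 under 0.1, 36 up to 0.42 and 8 at 1.0, and the one at 77692206 had 61 under 0.1, 24 up to 0.3 and 10 at 1.0. On chromosome 3 at 11502321 there were 51 under 0.1, 35 up to 0.37 and 9 at 1.0. None of the 5 had a library over 0.5 other than at 1.0.

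With 1.0 set aside at every position, most positions had no library over 0.5, and a few had many. The highest library was at a median of 0.14 over the 10413 positions, with quartiles of 0.08 and 0.25, and 3103 positions (29.8%) had no library at 0.1 or more. Of the 319 positions with a wide range, 144 had 1 library over 0.5, 84 had 2 to 7 and 91 had 8 or more, up to 28 libraries. They were rare beside runs, at 0.582% of the positions within 1000 bp of a run, against 4.36% of those over 10000 bp away. By CpGs in the repeat table they were 5.71% of the positions with 1 to 3, 1.91% of those with 4 to 9 and 0.461% of those with 10 or more. Of the 68 positions amid methylated CpGs, 25 (36.8%) had a wide range.

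In 188 of the positions at least 8 libraries lay between 0.3 and 0.7, and in 37 of these at least 3 more were over 0.88. The same was not counted over all 304191 positions, so 188 and 37 have no background share beside them. The 5 positions with the widest ranges after 1.0 was set aside were among the 37, and were chosen after their values were seen. On chromosome 28 at 38379531 the median was 0, with 52 libraries under 0.1, 26 between 0.3 and 0.7 and 7 over 0.88. On chromosome 4 at 26438624 the counts were 63, 18 and 7, on chromosome 13 at 1852828 they were 68, 18 and 6, on chromosome 7 at 69357093 they were 54, 31 and 6, and on chromosome 10 at 25567618 they were 59, 26 and 6, in the same order. In each of the 5, another 2 libraries were listed at 1.0, and they are counted in the first number, since 1.0 was set to 0.01. The plot of these 5 positions shows libraries at 0, around 0.5 and near 1 in each. No genotypes were analysed here. As deposited, 10 of the 10413 positions had 8 or more libraries in each of 3 bands (under 0.12, from 0.3 to 0.7, and over 0.88) and no more than 12 outside them, as 308 of all 304191 positions did.

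**Figure D4:**
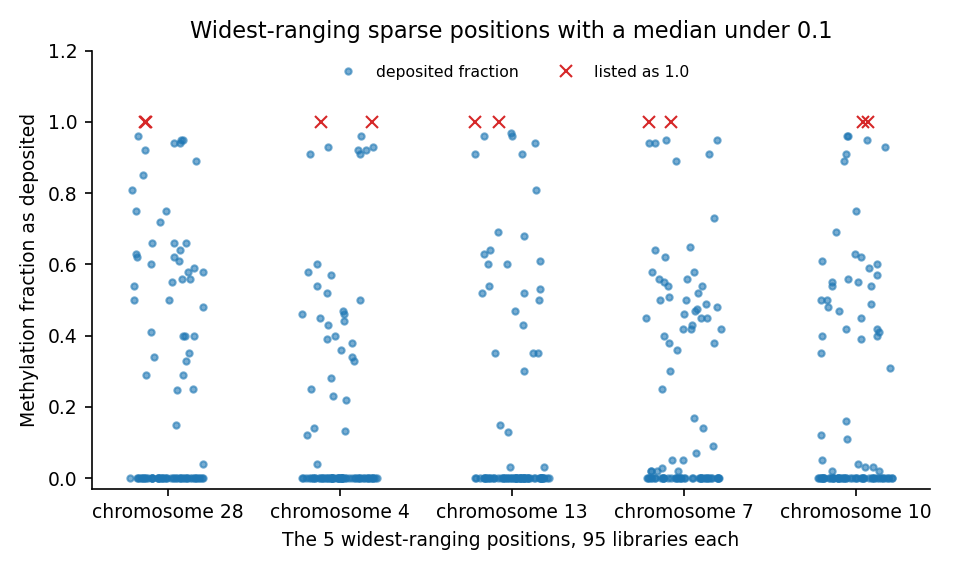
Deposited methylation fraction (vertical axis) of each of the 95 libraries (points, spread sideways at random; crosses are values listed as 1.0) at the 5 sparse unmethylated positions with the widest range after 1.0 was set aside, named by chromosome (horizontal axis). Each position has 2 crosses, which count as under 0.1 in the numbers given, so that 52 to 68 libraries are under 0.1, 18 to 31 between 0.3 and 0.7, and 6 or 7 over 0.88.

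High values at these positions returned in repeat libraries of the same number. For the numbers 1, 5, 6, 7, 8 and 10, a Pilot library was set beside the CHYB6 library of that number, leaving out filled-in values. Over the 6 pairs, 117 fractions over 0.5 and not 1.0 were found in a Pilot library, and 77 of these (65.8%) were again over 0.5 and not 1.0 in the CHYB6 library. By number these were 8 of 14, 6 of 8, 13 of 19, 11 of 20, 20 of 27 and 19 of 29. The other CHYB6 libraries reached at most 4, 2, 4, 6, 11 and 5 at the same fractions, fewer than the same-number library for every number. Of 47905 fractions under 0.1 in a Pilot library, 0 were over 0.5 and not 1.0 in the CHYB6 library. The values of exactly 1.0 returned less often. Of 386 in the Pilot libraries, 304 (78.8%) were under 0.1 in the CHYB6 library, 72 (18.7%) were 1.0 again and 2 were between 0.5 and 1.0. Over all sparse unmethylated positions with a value in it, a CHYB6 library listed 1.0 at 0.175% to 1.25%. Positions at 1.0 in a Pilot library were at 1.0 more often than that. The other CHYB6 libraries shared many of them as well. The library of the same number repeated 5 of 46 for number 1, where the others repeated 6 to 13. It exceeded every other library only for number 5, with 27 of 136 against at most 14, and for number 10, with 20 of 110 against at most 16.

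The widest-ranging positions named above illustrate these counts and are no further support. They were chosen by their ranges over libraries that include the Pilot ones, except number 1. The position on chromosome 4 at 26438624 is not listed in the repeat table. On chromosome 28 at 38379531 the Pilot and CHYB6 fractions were 0.95 and 0.92 for number 5, 0.66 and 0.76 for number 7, 0.94 and 1.0 for number 8, 0.48 and 0.55 for number 10, and 0 in both for numbers 1 and 6. On chromosome 10 at 25567618 they were 0.89 and 0.94 for number 5 and 0.55 and 0.46 for number 6, and at or under 0.05 for the other numbers. On chromosome 7 at 69357093 they were 0.38 and 0.52 for number 6, 0.46 and 0.52 for number 10, and 0 in both for the others. On chromosome 13 at 1852828 they were 0.69 and 0.56 for number 7, and 0 in both for the others except number 5, which was listed as 1.0 in the Pilot library and 0 in the CHYB6 library.

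**Figure D5:**
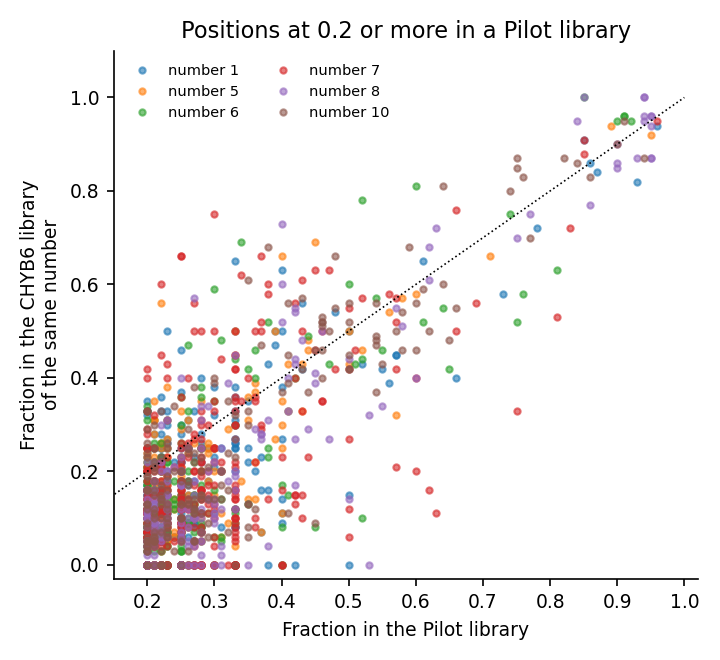
Each point is a sparse unmethylated position in 1 pair of libraries, with its fraction in the Pilot library (horizontal axis, 0.2 or more and not 1.0) and in the CHYB6 library of the same number (vertical axis), and the dotted line marks equal values. Of the 117 points over 0.5 on the horizontal axis, 77 are over 0.5 and under 1.0 on the vertical axis, and the points were chosen on the horizontal value.

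Most of the positions had another within 1000 bp, but large groups were few. The same was not counted over all sparse positions, so the counts of groups have no background share beside them. Joined by gaps up to 1000 bp with no run between, they formed 5871 stretches, of which 3041 were 1 position alone (29.2% of the positions), the other 7372 positions (70.8%) being in company, and 113 held 5 or more (616 positions). The largest held 8. On chromosome 4 from 36303518 to 36303969, 8 positions over 452 bp all had a median of 0, library means ran from 0 to 0.0238 with a median of 0.00125, and all 17 CpGs listed there in the repeat table were under 0.1, at 0. It lay 247810 bp from a run of the main table. A second stretch of 8 lay on chromosome 36 between 19901246 and 19903161. Its 8 positions, with medians up to 0.09, stood among 8 other listed positions with medians from 0.04 to 0.58, and library means ran from 0.00714 to 0.106. Of 11 CpGs there in the repeat table, 7 were under 0.1 and the highest was at 0.565. On chromosome 4 between 5241074 and 5241747, 7 positions had medians up to 0.02 and library means from 0 to 0.0314, with all 5 CpGs of the repeat table at 0.

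The 5 positions farthest from any run were all on chromosome 38, the chromosome with the lowest share. The farthest, at 8183887, lay 4502263 bp from a run and had a median of 0.04, with 80 libraries under 0.1 and the others up to 0.18 after 1 value of 1.0 was set to 0.01. Its neighbour at 8184028 had a median of 0.06 and a highest library of 0.4, and in the repeat table a median of 0 and a highest library of 0.12. The position at 6376462, with no other listed position within 100 bp, had a median of 0, 4 libraries at 1.0 and no other library above 0.06. The remaining positions of the 5 are the pair at 6004558 and 6004566.

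With 1.0 set to 0.01 at all 10413 positions, the mean over the positions was low in every library. The positions were chosen by low medians over these same libraries, so low values here largely follow from the choice and the setting. This mean had a median of 0.027 over the libraries and ran from 0.019 in L4_A12 to 0.0403 in L2_A13. L4_A12 had 13% of the positions listed at 1.0 and a mean of 0.148 as deposited. With 1.0 set only at medians under 0.05, its mean was 0.0301, and the lowest was 0.021 in L5_A12. As deposited the mean over the positions ran from 0.0214 to 0.163, the highest being L4_A7. After 1.0 was set to 0.01 at all of them, single libraries had from 83.6% to 96.9% of the positions under 0.1, and the middle library 90%. The highest share was again in L4_A12, where the replaced values count as under 0.1. Between 3 and 74 positions per library were at 0.5 or more without being listed as 1.0, with a median of 19.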

How the data were processed

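The deposited tables hold methylation fractions per cytosine position and library, which the authors made from bisulfite reads and deposited without counts or coverage, so no coverage minimum could be set. Trim Galore, Bismark 0.14.3, Bowtie2 2.1.0 and CanFam3.1 are named in the submitters' processing notes, with no step given. All 102 table rows were left without a group. Coordinates are the first one the file headers list. Whether they count from 0 or 1 is unknown, so each may be off by 1 bp. The table mapped to human probes was not used here.

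Positions and groupings were chosen with earlier results of these data known. Density, runs, distances and CpGs were computed with Python 3.11.15, NumPy 2.4.6 and SciPy 1.17.1, drawn with Matplotlib 3.10.9, and tested on simulated data against direct counts. A value counted as 1.0 within 1e-06. Named positions were the 5 farthest from a run, the 5 with the widest range between the 5th and 95th percentile, those next to the boundary, and the 3 stretches with most positions. Ties went to the lower chromosome and position. No test was planned or run, because positions are not replicates and libraries have no group. Alternatives changed the density window, the boundary, the average, the runs, the libraries and the treatment of 1.0 and of filled-in values.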

Additional observations from a re-analysis of the deposited data

How the results depend on the processing

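Of 52 alternatives, 21 left a value within its counting interval, or a count within 1.5 times, and 31 did not. The counting interval is a binomial one that treats positions as independent draws, which they are not. It is a mark for comparison only and does not measure stability. No test was run, so no threshold was crossed. Against the other sparse positions, the share within 1000 bp of a run was higher at the sparse unmethylated ones under all 14 alternatives tried, by 10.8 to 51.9 percentage points, and the share with an unmethylated nearest run under all 14, by 3.75 to 23.2 points. Other comparisons with the background were not recomputed in this way, and that of ranges over 0.5 changed direction with the 1.0 setting (62.8% against 68.6% as deposited, 3.06% against 0.551% with 1.0 set). The number of positions was 20830 with density counted within 50 bp, in place of 10413, and within 1.5 times otherwise. The median distance of 19448 bp was 1729 bp with runs of 5, 114058 bp with runs of 20, 25636 bp with gaps up to 50 bp and 14785 bp with gaps up to 200 bp. The share within 1000 bp of a run (26.4%) was 43.57%, 12.37%, 23.81% and 28.92% with these run definitions. It was 42.98% and 19.24% with density within 50 and 200 bp, 28.06% and 24.14% with medians under 0.05 and 0.2, 27.76% and 27.38% with means as deposited and with 1.0 set, and 67.88% with CpG runs of the repeat table. The share with an unmethylated nearest run (75.65%) was 82.73% with a run level under 0.2. It was 62.2%, 87.51%, 80.41% and 73.52% with the 4 run definitions, 79.04% and 73.91% with the 2 density windows, and 76.98% and 74.5% with the 2 median boundaries. The repeat-table share under 0.1 (92.75%) was 99.36% under a boundary of 0.2. The share sparse in the repeat table (9.389%) was 18.58% within 50 bp, 6.957% within 200 bp and 36.81% with CpGs counted once. Positions with a range over 0.5 (1115) numbered 6541 as deposited and 319 with 1.0 set at all positions. The repeat-table runs, the joined CpGs, the last setting and the removal of 12 libraries were chosen after seeing the data. Leaving out filled-in values, or L4_A7 and L1_A7, with 6 other libraries over 5% at 1.0 and 4 over 5% filled in kept, moved none of the values it was tried on by more than these limits. Nor did leaving out all 12 libraries over 5% at 1.0 or filled in, which gave 817 positions with a range over 0.5. Depth is unknown, and its effect was not examined. No paired analysis was possible because no result comes from a test. The same-number libraries were set side by side as values alone.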
